A study of Mus musculus with 11 samples.

Results

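The microRNAs described here are the products of 3 related gene clusters, known as miR-17-92, miR-106a-363 and miR-106b-25. A probe belonged to the set when the mature miRNA in its name, or either miRNA of a joint name, was miR-17, miR-106a, miR-20a, miR-20b, miR-19a, miR-19b, miR-106b, miR-93 or miR-25. That rule found 7 of the 566 mouse miRNA probes on the panel, covering 9 miRNAs: mmu-miR-106a+mmu-miR-17, mmu-miR-20a+mmu-miR-20b, mmu-miR-93, mmu-miR-106b, mmu-miR-19a, mmu-miR-19b and mmu-miR-25. The prefix mmu- is left out below. Oviducts came from female CD1 mice, an outbred strain, aged 6 to 8 weeks, which were injected intraperitoneally on the day of estrus and killed 24 h later. The 3 control mice received vehicle with 0 µg of lipopolysaccharide (LPS), the bacterial endotoxin that the innate immune system senses; 4 mice received LPS of E. coli at 2 µg (low dose) and another 4 at 10 µg (high dose). The design planned 4 mice per treatment, and 1 control mouse is not analysed here. RNA of the whole oviduct was counted on the nCounter assay, in which each miRNA is ligated to a tag, hybridised to a fluorescent barcode and counted without amplification.

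A miRNA guides the silencing complex to messenger RNAs that pair with its seed, so miRNAs with the same seed can bind the same sites. The miR-17-92 cluster is known as a driver of proliferation in lymphoid cells and tumours, where its products repress the cell cycle inhibitor p21 and the pro-apoptotic protein Bim. The miR-106b-25 cluster lies in the gene of the replication factor Mcm7, and its products are known to act on overlapping targets. All 3 clusters are transcribed as polycistronic precursors, from which the single miRNAs are cut.

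The sequences show how closely the miRNAs resemble each other and which of them share a seed. They are RefSeq mature sequences of GRCm38.p6, written 5′ to 3′, with the seed (bases 2 to 8) in capitals. The first 6 carry the miR-17 seed, the next pair the miR-19 seed and the last the miR-25 seed.
miR-17: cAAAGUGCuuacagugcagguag
miR-106a: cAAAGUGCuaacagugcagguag
miR-20a: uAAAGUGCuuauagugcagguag
miR-20b: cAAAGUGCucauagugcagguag
miR-93: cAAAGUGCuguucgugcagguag
miR-106b: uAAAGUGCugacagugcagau
miR-19a: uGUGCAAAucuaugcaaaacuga
miR-19b: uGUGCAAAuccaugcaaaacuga
miR-25: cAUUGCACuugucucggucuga
Counting positions from 1 at the 5′ end and giving the base of the first-named miRNA first, miR-17 and miR-106a differ by U10A alone, and miR-20a and miR-20b by U1C and U10C. miR-19a and miR-19b differ by U11C alone, yet each has a probe of its own. Cross-hybridisation between these last probes was not tested.

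In the reference build GRCm38.p6, the miR-17-92 hairpins lie within 836 bases on the plus strand at chr14:115043671-115044506, in the order Mir17, Mir18, Mir19a, Mir20a, Mir19b-1 and Mir92-1. The miR-106a-363 hairpins lie at chrX:52741693-52742567 on the minus strand (Mir106a, Mir18b, Mir20b, Mir19b-2, Mir92-2 and Mir363). Mir106b, Mir93 and Mir25 lie at chr5:138165321-138165818 on the minus strand, inside the bounds of the Mcm7 gene. A joint probe therefore adds a chromosome 14 product to its chromosome X relative, and miR-19b has a hairpin in both clusters. Among the probes of the first cluster, miR-19a alone measures a product of a single hairpin, and all 3 probes of the Mcm7 cluster do.

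Total miRNA counts ran from 451323 to 684771 per mouse, and the 7 probes together made up 1.06% to 1.37% of them. A probe was taken as detected when it exceeded a lane's background bound, the mean plus 2 SD of its negative controls (57.1 to 143 counts), in at least 3 lanes; 205 miRNAs were. All 7 probes exceeded the bound in all 11 lanes, at the least by a factor of 2.12 (miR-19b). The samples were numbered in group order in the table's header, so that sample order and LPS cannot be told apart. B2m, an mRNA reference probe on the panel, counted 643 to 931 in controls and 1608 to 5052 in LPS mice, except 924 in high dose mouse 2. Markers of epithelium (7 of 7), ciliated cells (4 of 6) and smooth muscle and muscle (4 of 5) were detected, and none of the 10 listed pluripotent and germ cell miRNAs was. That list held miR-302a to miR-302d but not miR-367, which was detected, with 7 of 11 lanes above the bound. Lanes were scaled by TMM (the trimmed mean of log ratios between lanes), and normalized counts are counts after that scaling. In whole oviduct, fewer cells of a type and less RNA per cell cannot be told apart.

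The 7 probes did not all lie on the same side of control. With TMM, 3 of 7 lay above it at the low dose, against 49.8% of the 205 detected miRNAs. At the high dose 3 of 7 did, against 46.3%, so the split is close to that of all miRNAs. Against control and with TMM, miR-106a+miR-17 was called lower at the high dose. miR-19a, from the same cluster as miR-17, was called higher over both doses pooled. Neither call was stable, since the first held under 5 of 24 alternatives and the second under 11 of 23. miR-106b stood above control at both doses without passing, while its cluster neighbours miR-93 and miR-25 stood below control at both. At the high dose 1 of 7 passed the edgeR quasi-likelihood test at an adjusted p under 0.05, against 18.0% of the 205 detected miRNAs, and at the low dose 0 of 7 passed, against 5.85%. Over both doses together 1 of 7 passed (17.6% of all), and in the test across the 3 groups 0 of 7 did (13.7%). A count of 1 in 7 is close to these background shares. The median log2 change of the probes was -0.07 at the low dose and -0.05 at the high dose, against -0.0015 and -0.03 for all 205. At an unadjusted p under 0.05 in edgeR there were 2 of 7 (56 of 205) at the low dose and 3 of 7 (68 of 205) at the high dose, and 3 of 7 (66 of 205) in the test across groups. DESeq2 called none of the 7 at the low dose or across groups, against 13.8% and 15.1% of the miRNAs it tested. At the high dose it called miR-106a+miR-17 (DESeq2 adjusted p = 0.0459), against 21.5% of the miRNAs it tested. The limma-voom fit also called this probe there (limma-voom adjusted p = 0.039), against 18.0% of all.

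**Figure D1:**
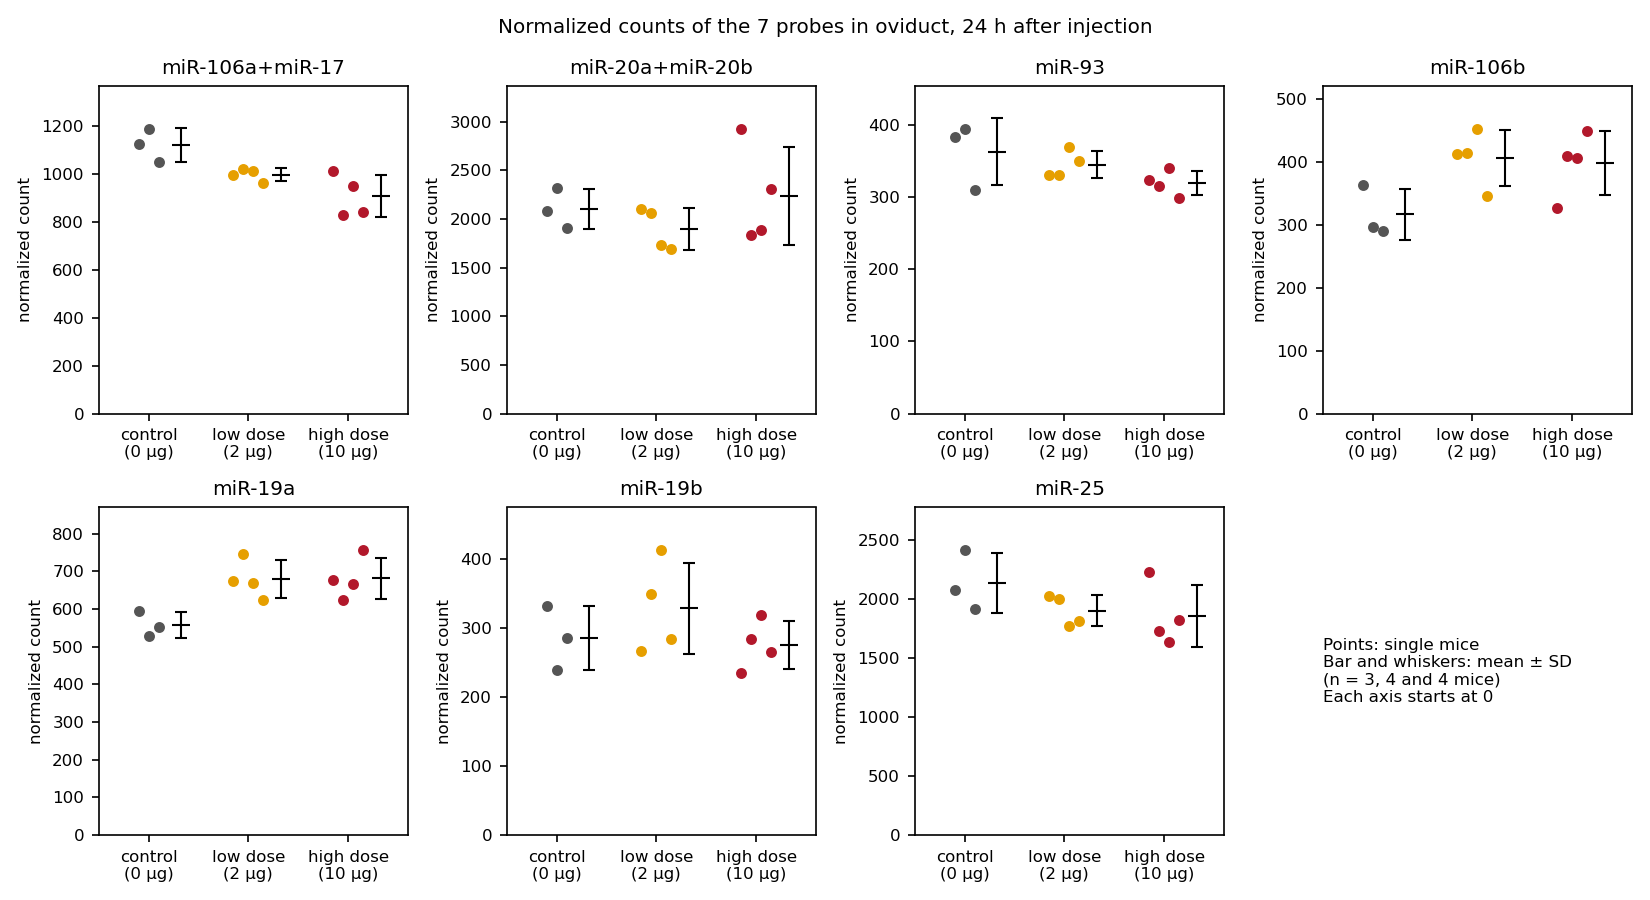
Normalized counts (vertical axes, each from 0) of the 7 probes in each mouse, by dose of LPS; points are single mice, and bars with whiskers are means ± SD over 3, 4 and 4 mice. All LPS mice sit below the control mice for miR-106a+miR-17 and above them for miR-19a on this scale, while the groups overlap for the other 5.

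Among the probes with the miR-17 seed, miR-106a+miR-17 had the most even levels within the low dose. Its normalized counts were 1124, 1189 and 1049.8 in the 3 control mice, 997, 1019.6, 1012 and 961 at the low dose, and 1013, 827, 951 and 842 at the high dose. Every LPS mouse lay below every control mouse, and the dose groups overlapped each other through high dose mouse 1. The level fell from 1121 ± 69.5 in controls to 909 ± 89.0 at the high dose (SD, n = 3 and 4), a log2 change of -0.30 ± 0.10 SE (edgeR adjusted p = 0.0460). At the low dose it was 997 ± 25.8, a log2 difference of -0.17 ± 0.10 SE that did not pass (edgeR adjusted p = 0.280) and turned positive with scaling to the positive controls (0.02) or to the mRNA probes without B2m (0.13). The high dose difference kept its sign under all 6 scalings, but ran from -0.68 with scaling to all mRNA probes to -0.13 with the positive controls, and none of the 5 other scalings called it (edgeR adjusted p = 0.0612 to 0.897). Its call ended under 19 of 24 alternatives, including 10 of the 11 fits that left out a mouse, with adjusted p from 0.0195 to 0.897 over the alternatives that adjust it. Without high dose mouse 1 it passed, and without any other of the 11 mice it did not.

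miR-20a+miR-20b, with the same seed and from the same clusters, was uneven within the high dose. It counted 2929 and 2308 normalized counts in high dose mice 1 and 4, against 1839 and 1885 in mice 2 and 3. Controls had 2085, 2316 and 1912, and low dose mice 1696 to 2104, so all 3 groups overlapped. The log2 change was -0.15 ± 0.16 SE at the low dose and 0.09 ± 0.16 at the high dose, with 95% intervals of -0.49 to 0.20 and -0.26 to 0.44. High dose mouse 1, which had the smallest total count of the 11 mice, decided the sign of the latter: without it the difference was -0.07, and with scaling to all mRNA probes -0.32.

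miR-93, from the Mcm7 cluster, spanned the narrowest range of the 7, 298 to 394 normalized counts over all mice. Means were 362 ± 46.0 in controls, 345 ± 18.7 at the low dose and 319 ± 17.2 at the high dose (SD, n = 3, 4 and 4), with overlap through control mouse 3 at 309.7. Its log2 change was -0.07 ± 0.10 SE and -0.18 ± 0.10 SE (edgeR adjusted p = 0.690 and 0.217). Without control mouse 2 these were -0.01 and -0.09, and without control mouse 3 -0.17 and -0.28. The low dose difference turned positive with scaling to the positive controls (0.12) or to the mRNA probes without B2m (0.22). Counting noise alone would give 45.6% of its variance between mice of a group, the largest share of the 7; for miR-20a+miR-20b that share was 1.99%.

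miR-106b, from the same cluster and with the same seed, moved to the other side of control. Control mice had 363, 297 and 290 normalized counts, low dose mice 412, 413, 452 and 346, and high dose mice 326, 409, 406 and 448. At each dose 3 of 4 mice lay above every control mouse, and the fourth lay below control mouse 1. The log2 change was 0.36 ± 0.13 SE at the low dose and 0.33 ± 0.13 SE at the high dose (edgeR adjusted p = 0.112 and 0.0943). Over both doses it was 0.34 ± 0.12 SE (edgeR adjusted p = 0.0597). Without high dose mouse 1, miR-106b passed at the high dose (log2 change 0.41) and over both doses (0.38), and without control mouse 1 or low dose mouse 4 it passed over both doses (0.46 and 0.38). With scaling to all mRNA probes its high dose difference turned to -0.03.

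The miR-19 seed has the 2 probes that differ by a single base of target. miR-19a counted 596, 527 and 551 normalized counts in controls, 675, 746, 668 and 625 at the low dose and 678, 623, 666 and 756 at the high dose. Every LPS mouse lay above every control mouse, and both doses had nearly the same mean, 678 ± 50.3 and 681 ± 55.1 against 558 ± 34.7 in controls (SD, n = 4, 4 and 3). Over both doses the level rose by 0.28 ± 0.09 SE on the log2 scale (edgeR adjusted p = 0.0430), relative to the other miRNAs; with scaling to all mRNA probes it was -0.02 ± 0.32. At each dose alone it stood 0.28 ± 0.10 and 0.29 ± 0.10 SE above control and did not pass (edgeR adjusted p = 0.104 and 0.0615). At the high dose it did pass under 4 alternatives, namely nCounter-style scaling (to the most abundant miRNAs), the filter in every lane, background subtraction and least significant difference contrasts without adjustment. The call over both doses ended under 12 of 23 alternatives, with adjusted p from 0.0257 to 0.981 over those that adjust it. Leaving out any of the 3 control mice, low dose mouse 1, 2 or 3, or high dose mouse 4 ended it.

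miR-19b was more variable. Its normalized counts were 332, 239 and 285 in controls, 267, 349, 413 and 285 at the low dose, and 235, 284, 318 and 265 at the high dose, with full overlap at the high dose apart from mouse 1, which lay below every control mouse. The log2 change was 0.20 ± 0.16 SE at the low dose and -0.05 ± 0.16 at the high dose, with 95% intervals of -0.15 to 0.56 and -0.41 to 0.31. Those intervals include the change of miR-19a, so the levels alone do not set the 2 miR-19 probes apart.

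miR-25, the third product of the Mcm7 cluster, carries the miR-25 seed. Its normalized counts were 2083, 2417 and 1915 in controls, 2029, 2000.5, 1776.5 and 1814 at the low dose, and 2234, 1729, 1637 and 1822 at the high dose. High dose mouse 1 lay among the controls, and the other 3 lay below all of them. The log2 change was -0.17 ± 0.12 SE and -0.21 ± 0.12 SE (edgeR adjusted p = 0.441 and 0.263). Without control mouse 2 these were -0.08 and -0.08, and the high dose difference was -0.14 without high dose mouse 3. Over all mice left out in turn they ran from -0.24 to -0.08 and from -0.31 to -0.08. The low dose difference became 0.02 with scaling to the positive controls and 0.12 with the mRNA probes without B2m.

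**Figure D2:**
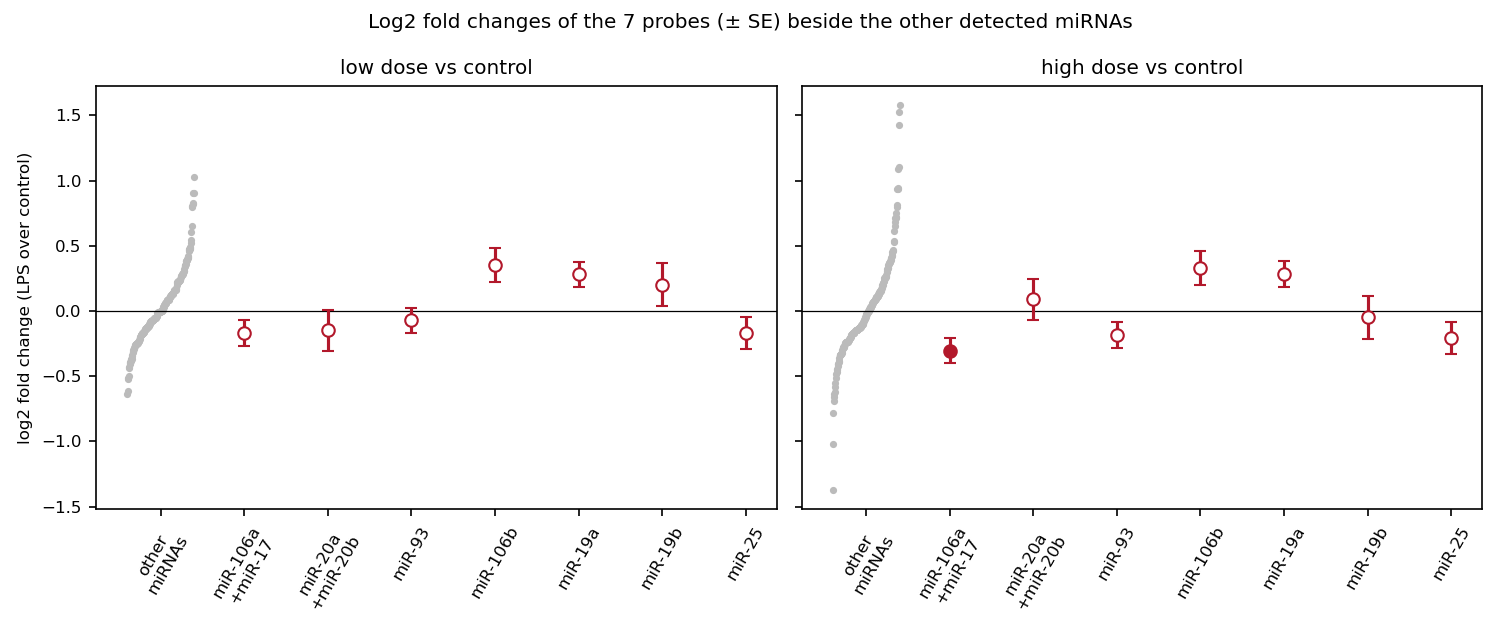
Log2 fold change over control (vertical axis) of the 7 probes, ± SE, at the low dose (left) and the high dose (right), beside the other detected miRNAs in rank order (grey points). The filled circle, miR-106a+miR-17 at -0.30, passed the edgeR test; open circles did not, and all 7 lie well inside the range of the other miRNAs.

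Between the doses 0 of 7 passed, and 1 of all 205 did (0.488%). At an unadjusted p under 0.05 in edgeR there were 0 of 7, against 27 of 205. DESeq2 called 0 of 7, against 1.95% of the miRNAs it tested. The differences, high minus low dose, ran from -0.25 ± 0.15 SE (miR-19b) to 0.24 ± 0.15 (miR-20a+miR-20b). For miR-19a the difference was 0.0052 with a 95% interval of -0.19 to 0.20, and for miR-106a+miR-17 -0.14 with an interval of -0.33 to 0.06. The low and high dose comparisons share their control mice. Of the 7 probes, 2 (miR-106a+miR-17 and miR-19a) had no overlap between low dose and control mice, as did 23.9% of all 205. The same 2 had none between high dose and control mice, against 27.3% of all, and 0 of 7 were free of overlap between the doses, against 7.80%.

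Scaling moved all miRNAs together. The median log2 change of the 205 miRNAs at the high dose was -0.03 with TMM, -0.39 with the 4 mRNA probes, 0.13 with those probes without B2m and 0.12 with the positive controls. Taken relative to that median, the high dose change of miR-106a+miR-17 was -0.29 to -0.25 under the 6 scalings, that of miR-19a 0.30 to 0.32 and that of miR-106b 0.36 throughout. At the low dose the relative changes were -0.17 to -0.16, 0.26 to 0.28 and 0.34 to 0.36. A lane scaling shifts all miRNAs nearly alike, and subtracting the median removes that shift. This agreement therefore follows from the arithmetic and does not test whether the changes hold.

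**Figure D3:**
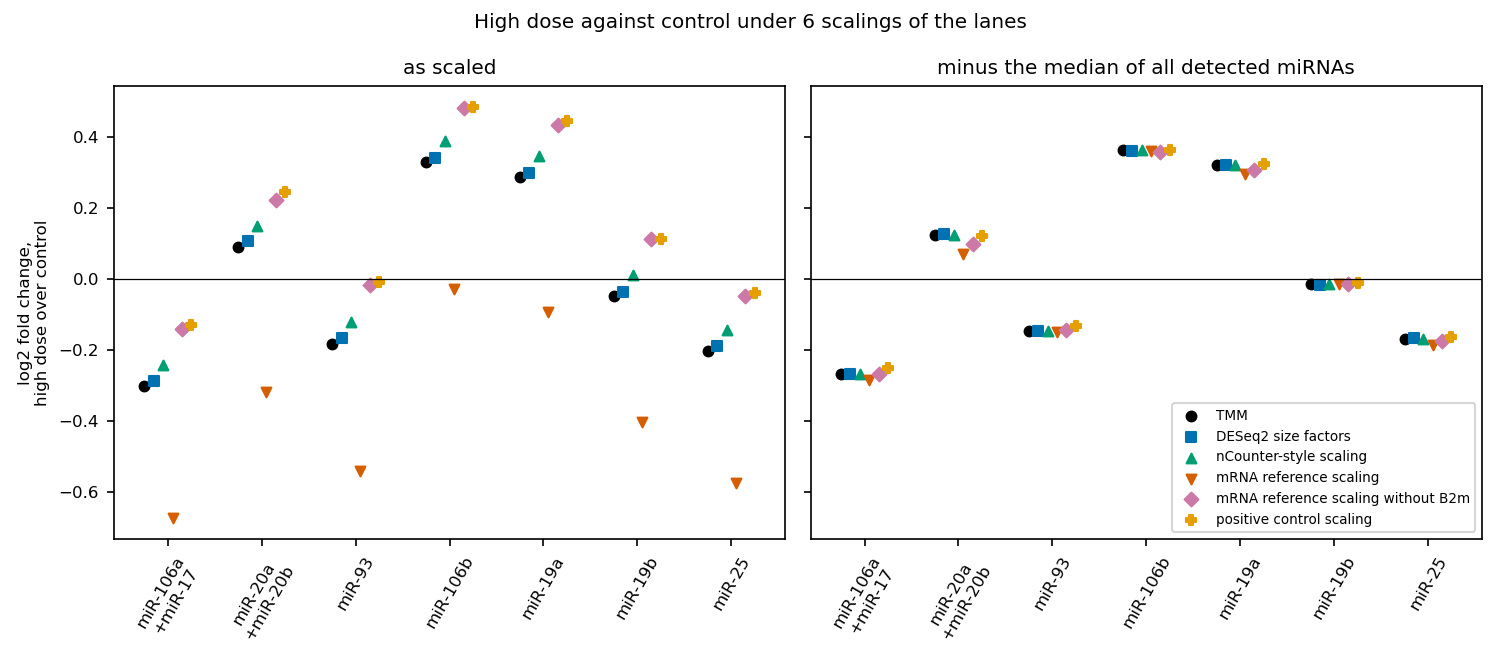
Log2 fold change of the 7 probes at the high dose over control under 6 scalings of the lanes, as scaled (left) and after subtracting the median of all detected miRNAs (right). On the left the values of each probe spread with the scaling, lowest with the 4 mRNA probes. On the right they nearly coincide, because subtracting the median removes the shift that a scaling gives to all miRNAs. There miR-106b, miR-19a and miR-20a+miR-20b lie above 0 and miR-106a+miR-17, miR-93, miR-25 and, slightly, miR-19b below.

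A ratio of 2 probes counted in the same lane needs no scaling between lanes, and 6 such ratios within the clusters were compared. The count of miR-19a per count of miR-106a+miR-17 was 0.530, 0.444 and 0.525 in the control mice. It was 0.677, 0.732, 0.660 and 0.650 at the low dose and 0.669, 0.754, 0.700 and 0.897 at the high dose. All 8 LPS mice lay above all 3 controls. The log2 ratio was 0.52 higher over both doses (exact two-sided permutation test, p = 0.00606, the smallest these groups allow, and p = 0.0182 adjusted over the 6 ratios). In the exact permutation test of the F statistic across the 3 groups it was the 1 ratio of 6 that passed (p = 0.00121, adjusted p = 0.00727). All 6 ratios were chosen with earlier results of these data known. Both probes of this ratio had already separated LPS from control mice, in opposite directions, so its full separation was fixed beforehand. Its p-values are therefore no independent support.

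In the Mcm7 cluster, miR-93 and miR-25 were both lower per count of miR-106b. The ratio of miR-93 to miR-106b was 1.06, 1.33 and 1.07 in controls, 0.802, 0.798, 0.816 and 1.01 at the low dose and 0.992, 0.772, 0.836 and 0.664 at the high dose. All 8 LPS mice lay below all controls, with a log2 difference of -0.46 (exact permutation test, p = 0.00606, adjusted p = 0.0182). For miR-25 to miR-106b 7 of 8 LPS mice lay below all controls, the exception being high dose mouse 1, and the log2 difference was -0.53 (exact permutation test, p = 0.0182, adjusted p = 0.0364). Neither passed in the F test across the 3 groups (adjusted p = 0.0765 and 0.103). Without any one of the 3 control mice neither miR-19a to miR-106a+miR-17 nor miR-93 to miR-106b passed (exact permutation tests, adjusted p = 0.0667 each time), with log2 differences of 0.44 to 0.56 and -0.52 to -0.36. Both were then at the smallest unadjusted p that the remaining mice allow (0.0222), so these losses say nothing about stability. The ratio of miR-25 to miR-106b passed in 1 of the 11 tests that left out a mouse, the one without high dose mouse 1. How often ratios of other miRNA pairs separate LPS from control mice was not counted. Of single miRNAs, 23.9% had no overlap between low dose and control mice, and 27.3% had none between high dose and control mice. Separation of a ratio can therefore not be read as particular to these clusters.

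The other 3 ratios did not pass. miR-19b to miR-106a+miR-17 was 0.31 higher over both doses, miR-20a+miR-20b to miR-106a+miR-17 0.20 higher and miR-19a to miR-19b 0.21 higher (exact permutation tests, adjusted p = 0.191, 0.255 and 0.255, log2 scale). Within the high dose, miR-20a+miR-20b to miR-106a+miR-17 was 1.98 to 2.89, above the 1.82 to 1.95 of controls in all 4 mice, while at the low dose it was 1.72 to 2.11. The F test across groups gave p = 0.0383 for this ratio (exact permutation test, adjusted p = 0.0765).

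**Figure D4:**
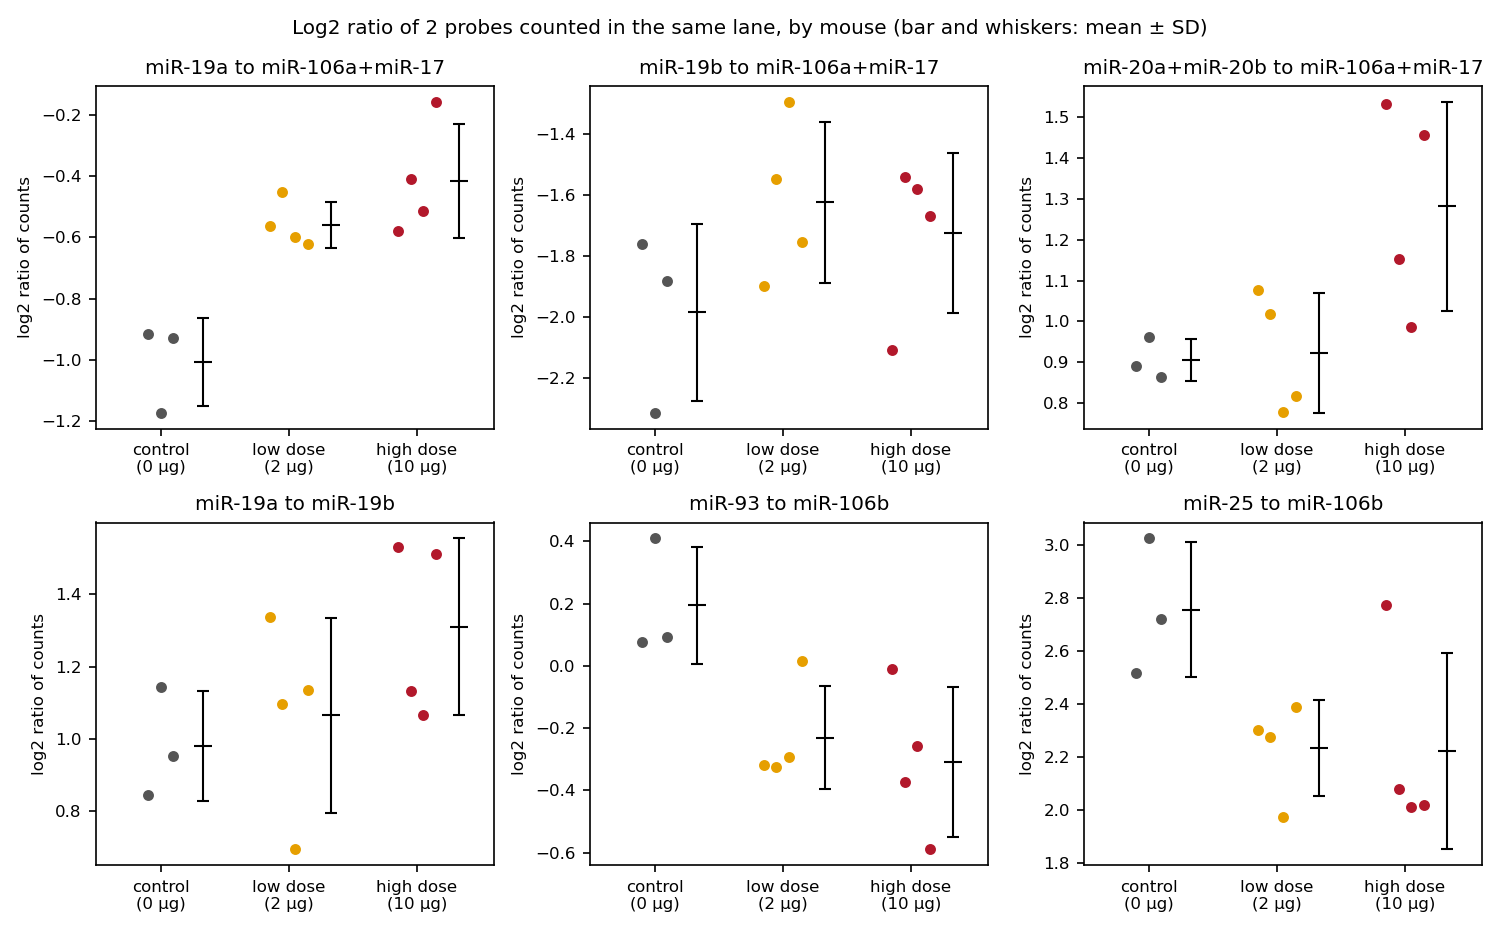
Log2 ratio of the counts of 2 probes within a lane (vertical axes) for each of 6 pairs, by mouse and dose; bars with whiskers are means ± SD. All 8 LPS mice lie above the 3 controls for miR-19a to miR-106a+miR-17 and below them for miR-93 to miR-106b, and high dose mouse 1 lies apart for miR-25 to miR-106b.

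The cluster products that the rule leaves out gave little signal. Of miR-18a, miR-18b, miR-92a and miR-363, 0 of 4 exceeded the background bound in any lane. miR-92a, with the sequence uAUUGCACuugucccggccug and thus the miR-25 seed, counted 13 to 31 raw counts per lane, and miR-18a 7 to 18. No level or change is given for probes under the bound. The panel held no probe named as a star form.

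Outside the clusters, 3 further probes were matched by name to miRNAs with the miR-25 seed, and none to the other seeds. miR-32 (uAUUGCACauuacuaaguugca) was above the bound in all 11 lanes, with 119 ± 13.5 normalized counts in controls, 148 ± 1.76 at the low dose and 147 ± 19.2 at the high dose (SD, n = 3, 4 and 4). Its log2 change of 0.31 ± 0.12 and 0.30 ± 0.12 SE, opposite in sign to miR-25, did not pass (edgeR adjusted p = 0.121 and 0.0914). miR-367 and miR-92b exceeded the bound in 7 and 6 lanes, and neither passed.

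Likeness between probes was measured as the root mean square difference of log2 normalized counts, each centred on its mean over the 11 mice. Between members it ran from 0.101 (miR-106a+miR-17 and miR-93) to 0.404 (miR-19b and miR-20a+miR-20b). miR-106b was closer to miR-19a (0.135), of another cluster, than to its own cluster neighbours miR-93 (0.271) and miR-25 (0.336). Among other miRNAs the nearest to miR-106a+miR-17 were let-7g (0.0731) and miR-1896 (0.0875), against a median of 0.246 over all others. The nearest to miR-19a were miR-29a (0.116) and miR-377 (0.125), and to miR-106b miR-484 (0.120) and let-7f (0.120). For miR-25 they were let-7d (0.0750) and miR-151-5p (0.0945), for miR-93 miR-188-3p (0.0745) and miR-1955 (0.0746), for miR-19b miR-103 (0.113) and miR-140 (0.132), and for miR-20a+miR-20b miR-22 (0.135) and let-7i (0.138).

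The clusters are expressed in many cell types, including leukocytes. The 5 leukocyte markers were all detected, and none of the 5 passed at either dose. Their summed normalized counts were 3905 to 5364 in controls, 4896 to 5496 at the low dose and 3676 to 4424 at the high dose. Each dose overlapped control, but the doses did not overlap each other. The 3 erythroid markers summed to 1425 to 4188, 1870 to 5445 and 2250 to 3134 (written lowest to highest, by group), and none passed. Of the 7 epithelial markers, miR-203 rose at both doses (log2 change 0.80 and 1.58, edgeR adjusted p = 0.00254 and 2.85e-06), while the list's sum was 35261 to 37221 in controls, 28855 to 38222 at the low dose and 34524 to 39491 at the high dose. Of the 2 endothelial markers, miR-126-5p rose at the high dose (0.71, edgeR adjusted p = 0.00251), with list sums of 4840.4 to 6182, 5124 to 5738 and 5329 to 6957. No ciliated or muscle marker passed at either dose. The part of cell composition in the values of the 7 probes was not tested.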

How the data were processed

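The authors deposited barcode counts by probe and lane, not normalized, in columns treated as estimated counts because they also carry a lane's binding density, which has decimals. All probe values were whole. Assay and treatment are per the labels' protocols, and each lane is a separate mouse per the labels. The counting software was not given in sources used here. The members, lists and ratios were chosen with earlier results of these data known, including the opposite directions of miR-106a+miR-17 and miR-19a, which are therefore no independent support. Group differences were tested with edgeR 4.0.16 (quasi-likelihood; R 4.3.3): all 11 mice entered a single model, TMM set the scale, and p-values were adjusted over the 205 detected miRNAs by Benjamini-Hochberg. The model was tested on simulated counts. The SE of a log2 change is its size over the square root of F. Named were all 7 members, their cluster mates, same-seed miRNAs and the 2 miRNAs nearest each member (offset 0.5 before log2). Ratios of raw counts were tested by exact permutation. Alternatives were 5 other scalings, 2 other filters, background subtraction, DESeq2 1.42.0, limma-voom (limma 3.58.1), the design text's one-way variance analysis with LSD (least significant difference) contrasts, which does not adjust p, fits to the compared groups only, a replicate block and leaving out each mouse.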

Additional observations from a re-analysis of the deposited data

Results flagged for a closer look

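In the ratio of miR-93 to miR-106b, low dose mouse 4 lay far above the other 3 low dose mice, at 0.0156 on the log2 scale. In the ratio of miR-25 to miR-106b, high dose mouse 1 lay far above the other 3 high dose mice, at 2.78. Chance would put about 1 in 20 groups past this bound, and 26 groups were examined.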

How the results depend on the processing

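The number of members that passed moved between 0 and 3, and the share of all miRNAs called moved too. At the high dose it was 1 (18.0% of all). It was 0 with DESeq2 size factors (17.1%), mRNA scaling (0.976%), mRNA scaling without B2m (7.8%), positive control scaling (8.78%) and no filter (6.01%). It was also 0 with the compared groups only (14.1%) and the replicate block (13.7%). With nCounter-style scaling (16.6%) and background subtraction (18.5%) it stayed at 1, but the member was miR-19a in place of miR-106a+miR-17. It was 2 with the filter in every lane (26.2% of all) and with LSD (25.9%). On leaving out a mouse it was 0 to 2 (2 without high dose mouse 1, against 39 of 205 miRNAs). The share of all miRNAs was then 12.3% to 19.7%. Over both doses the number was 1 (17.6% of all). It was 0 with mRNA scaling (0.976%), mRNA scaling without B2m (9.27%), positive control scaling (7.32%), no filter (5.48%) and the replicate block (13.2%). It was 2 with nCounter-style scaling (20.5%), the filter in every lane (26.9%), background subtraction (39 of 205) and LSD (24.9%). On leaving out a mouse it was 0 to 3 (3 without high dose mouse 1, 23.4%), with 11.3% to 23.4% of all miRNAs called. LSD gave 1 at the low dose (19.5%) and 2 across groups (29.8%). Between doses it stayed at 0 under all 24 alternatives. The share of all miRNAs called there was 0.488% with TMM, and ran from 0% with positive control scaling to 13.2% with LSD. Replicate numbers were not treated as pairs, since 2 of 10 same-numbered pairs had correlated deviations above 0.1. The highest correlation of any pair was nevertheless a same-numbered one (0.402, low dose 1 and high dose 1), against at most 0.263 for the others. Pairing is therefore not excluded. The numbers compared were those of the sample titles, while the header gives control mouse 3 the sample number 4. Set against mouse 4 of each dose instead, control mouse 3 had correlations of 0.096 (low dose) and -0.1254 (high dose). With the replicate block the ratio of miR-19a to miR-106a+miR-17 was 0.49, of miR-93 to miR-106b -0.46 and of miR-25 to miR-106b -0.52, none of which passed (exact permutation, adjusted p = 0.111, 0.111 and 0.148). The first 2 were at the smallest p the 27 arrangements allow (0.037 unadjusted), so this says nothing about their stability. Leaving out a mouse gave 0.44 to 0.56, -0.52 to -0.36 and -0.65 to -0.39. The other signs that turned, as log2 changes, were these. At the low dose miR-106a+miR-17, miR-20a+miR-20b, miR-25 and miR-93 were 0.0184, 0.0275, 0.0178 and 0.119 with positive control scaling, and 0.126, 0.130, 0.121 and 0.224 with mRNA scaling without B2m. At the high dose miR-106b, miR-19a and miR-20a+miR-20b were -0.0306, -0.0946 and -0.320 with mRNA scaling. There miR-19b was 0.0114 with nCounter-style scaling, 0.110 with positive controls and 0.111 with mRNA without B2m, and -0.1351 to 0.0872 on leaving out a mouse, as miR-20a+miR-20b was -0.0655 to 0.1894. Between doses miR-106b was 0.0054 with nCounter-style scaling, and miR-19a -0.158 with mRNA, -0.126 with mRNA without B2m, -0.0040 with positive controls, -0.0182 with no filter and -0.0021 with background subtraction. Leaving out a mouse gave -0.0981 to 0.0528 for miR-106b, -0.0321 to 0.0762 for miR-19a and -0.1395 to 0.0458 for miR-25. Over both doses miR-19a and miR-19b were -0.0155 and -0.194 with mRNA scaling. There miR-20a+miR-20b was 0.0143 with nCounter-style scaling, 0.135 with positive controls and 0.176 with mRNA without B2m. With that last scaling miR-25 and miR-93 were 0.0353 and 0.103, and miR-93 was 0.0540 with positive controls. Leaving out a mouse gave -0.0237 to 0.2107 for miR-19b and -0.1064 to 0.0554 for miR-20a+miR-20b. Scaling put the median change of all miRNAs at -0.39 to 0.29 over both dose comparisons; the cause of the other moves was not tested.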
